A study of Caenorhabditis elegans with 24 samples.

Results

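The genes described here are 9 factors of the pathway that makes and uses 26G small RNAs in Caenorhabditis elegans, also called the ERI pathway. They were taken by gene name from tables of 46926 genes, and all 9 were found: the Argonaute genes alg-3, alg-4 and ergo-1, and the genes of the synthesis machinery rrf-3, eri-1, eri-3, eri-5, dcr-1 and rde-4. Whole worms were collected as young adults, and their RNA was sequenced as 24 rRNA-depleted libraries, in 8 groups of 3 that combine 4 genotypes and 2 temperatures. WT carries 3xFLAG::GFP::WAGO-4, a tagged form of the germline Argonaute WAGO-4. 3×FG carries the same tag together with mutated FG repeats in the germ granule helicases GLH-1, GLH-2 and GLH-4. wago-4(Y611E) carries the tag and a residue change that is predicted to disturb binding of small RNAs. wago-4(ko) is a stop codon knockout whose label names no tag, so that it may also differ from the others by the tag. Worms of the 20 °C groups were kept at 20 °C. For the 26 °C groups the parents were moved to 26 °C as L4 larvae and their progeny grew at 26 °C to young adults.

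26G RNAs are made when the RNA-dependent RNA polymerase RRF-3 copies a messenger RNA and the RNase III enzyme DCR-1 cuts the double-stranded product, within a complex that also holds ERI proteins and the double-stranded RNA binding protein RDE-4. In the male germline and during spermatogenesis these small RNAs are bound by ALG-3 and ALG-4, while in oocytes and embryos they are bound by ERGO-1. Worms without ALG-3 and ALG-4 are known to make defective sperm and to lose fertility at elevated temperature.

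The deposited values used here are means of normalized read counts over the libraries of a fit, with no value for a single library. 3 such means were available per gene: 1 from libraries of 20 °C, 1 from libraries of 26 °C and 1 from a fit of both temperatures. The temperature of a fit was read from the names of its tables. Tables named for 3 different mutants held identical means, so each mean pools the genotypes, and the genotypes could not be compared here. There is no replicate error for any value below and no test could be run; all differences are descriptions of the authors' means. In RNA from whole worms, fewer cells of a type and less RNA per cell cannot be told apart. The means of a fit summed to between 28460281 and 30474128 over all genes, and the depth of the libraries is unknown here.

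The 2 Argonaute genes of spermatogenesis had lower means at 26 °C than at 20 °C, and the other 7 genes differed little. Ratios are given as the log2 of the 26 °C mean over the 20 °C mean, each with 0.5 added, and set so that the median of the 14175 genes with a mean of at least 10 in the fit of both temperatures lies at 0, since the fits were normalized separately. By this measure alg-4 was 2.98-fold lower and alg-3 was 2.33-fold lower, whereas the other 7 lay between -0.50 and 0.07. Of the 9 genes, 2 were lower at 26 °C by more than 1.5-fold, where 13.7% of all genes were, and 0 were higher by more than 1.5-fold, where 21.9% of all genes were. Scaled to the same sum in both fits the count of the 9 genes was still 2 lower and 0 higher, where 8.88% of all genes were lower and 29.4% higher. The median ratio of the 9 genes was -0.21, with 8 ratios below 0 and 1 above, but with 5 below and 4 above when the fits were scaled to the same sum.

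alg-4 (WBGene00006449) encodes an Argonaute that binds 26G RNAs in spermatogenic cells, and lies on chromosome III from 9887209 to 9891424 on the minus strand of WBcel235. Its authors' mean was 1153 normalized counts at 20 °C and 410.3 at 26 °C, with 924.2 when both temperatures were fitted together. The log2 ratio was -1.57, and 1.48% of all genes had a lower ratio.

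alg-3 (WBGene00011910) encodes the paralogue that acts together with ALG-4, and lies on chromosome IV from 11704246 to 11708264 on the plus strand. For this gene the 20 °C mean was 920.5 normalized counts and the 26 °C mean 419.5, with 777.7 in the joint fit of both temperatures. The log2 ratio was -1.22, with 3.46% of all genes lower. The genes are close paralogues, and how reads matching both were counted is not given in the sources used here, so the split between them is uncertain. Their summed mean was 2073 normalized counts at 20 °C and 829.8 at 26 °C, a log2 ratio of -1.40. This sum does not depend on the split if each shared read was counted once, which is not known here.

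The size of this difference depends on which fit gave the 26 °C level. Over the genes with a mean of at least 10 in the fit of both temperatures, that mean was matched most closely by a weighted sum. The weights were 0.526 for the 20 °C mean and 0.490 for the 26 °C mean. When the 26 °C level was worked out from that fit, a setting chosen after seeing the data, the log2 ratio was -0.71 for alg-3, -0.92 for alg-4 and -0.83 for their sum. Both genes were then still lower by more than 1.5-fold. Of the genes with a mean of at least 10, 14.7% had a mean in the fit of both temperatures outside the range of the other fits, so that the libraries or scaling behind the 3 fits are not fully known here.

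**Figure D1:**
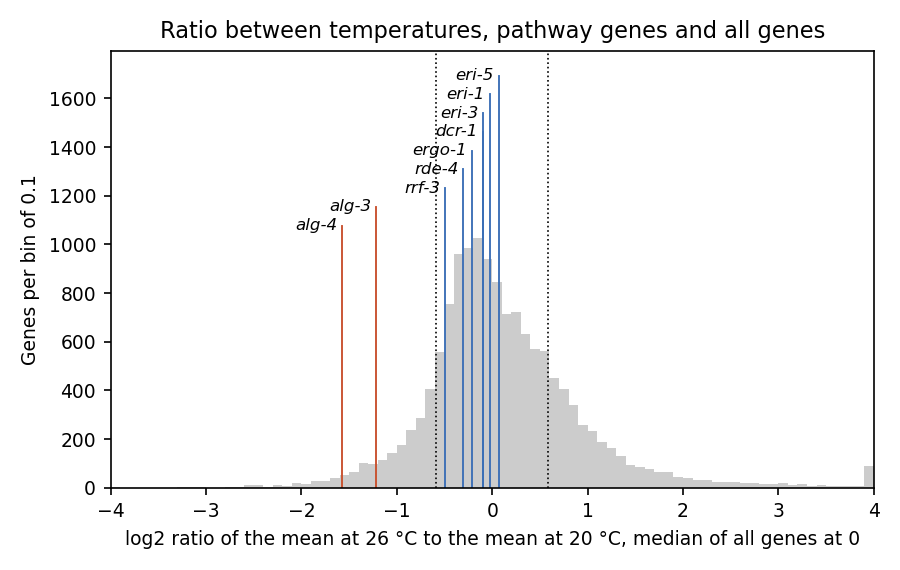
Number of genes per bin of 0.1 (vertical axis) by the log2 ratio of the 26 °C mean to the 20 °C mean (horizontal axis), for 14175 genes, with those beyond the ends of the axis placed in the end bins. Coloured lines mark the 9 pathway genes and dotted lines mark 1.5-fold: alg-4 at -1.57 and alg-3 at -1.22 lie beyond the lower dotted line, and the other 7 lie between the dotted lines.

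ergo-1 (WBGene00019971) encodes the Argonaute of the oocyte and embryo branch, and lies on chromosome V from 1008803 to 1018352 on the plus strand. Its mean was 10582 normalized counts at 20 °C and 9681 at 26 °C, with a log2 ratio of -0.21. This ratio stands near the middle of all genes, of which 35.2% were lower. The Argonaute genes of the 2 branches thus stood at different places among all genes. Because it compares genes within 1 fit, the ratio of ergo-1 to alg-3 and alg-4 together, per transcript length, does not depend on the scaling between fits: it was 4.55 at 20 °C and 10.4 at 26 °C. It does depend on which fit gives the 26 °C level, and was 6.41 with the level from the fit of both temperatures.

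Among the genes of the synthesis machinery, rrf-3 had the lowest ratio. rrf-3 (WBGene00004510), the RNA-dependent RNA polymerase that makes the complementary strand, lies on chromosome II from 8162465 to 8168651 on the plus strand. Its mean was 4292 normalized counts at 20 °C and 3223 at 26 °C. Its log2 ratio was -0.50, with 17.2% of all genes lower, and it stayed within 1.5-fold unless genes with a mean under 10 were included when setting the median to 0, which gave -0.60.

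dcr-1 (WBGene00000939), the Dicer nuclease that also processes microRNA and exogenous double-stranded RNA, lies on chromosome III from 8071967 to 8080281 on the minus strand. Its mean was 5997 normalized counts at 20 °C and 5935 at 26 °C, with a log2 ratio of -0.10. In the fit of both temperatures its mean was 6205, above both of these. rde-4 (WBGene00004326), its double-stranded RNA binding partner, lies on the same chromosome from 10217302 to 10218646 on the minus strand. It had 2986 and 2569 normalized counts and a log2 ratio of -0.30. Both genes stayed within 1.5-fold, and the sign for dcr-1 turned to 0.08 when the fits were scaled to the same sum.

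Each of the 3 eri genes had similar means at the 2 temperatures. eri-1 (WBGene00001332) encodes an exonuclease of the complex and lies on chromosome IV from 415635 to 419958 on the minus strand, with 1524 normalized counts at 20 °C and 1587 at 26 °C. Its mean in the fit of both temperatures was 1606, above both of these. eri-3 (WBGene00021103), a core component of the complex, lies on chromosome II from 1123534 to 1127791 on the plus strand, with 1207 and 1197 normalized counts. eri-5 (WBGene00021419), a Tudor domain protein that links RRF-3 to DCR-1, lies on chromosome IV from 2390821 to 2396263 on the plus strand, with 856.5 and 952.8 normalized counts. The log2 ratios were -0.03 for eri-1, -0.10 for eri-3 and 0.07 for eri-5. These lie within the middle of all genes, and the sign for each of these 3 genes depended on the setting: scaled to the same sum the ratios were 0.16, 0.09 and 0.25, and with no minimum mean they were -0.12, -0.20 and -0.03.

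Reads could be shared with an overlapping gene in 3 of the 9 genes, since the use of strand in counting is not given in the sources used here. ergo-1 shares 17 exonic bases with the antisense gene pei-2, whose mean was 179.2 in the fit of both temperatures. eri-5 shares 23 exonic bases with Y38F2AR.10, with a mean of 23.9, and rrf-3 shares 37 with T05C12.11, with a mean of 0.739. These stretches are short beside transcripts of 3655, 1821 and 5530 bases. The other 6 genes, alg-3 and alg-4 among them, overlap no annotated gene.

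Levels of different genes were compared per length, as the authors' mean divided by the longest annotated transcript and expressed in ppm of the sum over all genes. In the fit of both temperatures ergo-1 had the highest level at 138 ppm, followed by rde-4 at 116, dcr-1 at 53.3, eri-1 at 42.7, rrf-3 at 35.7, eri-3 at 33.9, eri-5 at 24.9, alg-4 at 14.3 and alg-3 at 12.0. Without a replicate error it cannot be said which neighbours in this order differ beyond their spread. ergo-1 stood above 92.2% of the genes with a mean of at least 10, and alg-3 above 51.1%. The highest level was 10.3 times the lowest at 20 °C and 21.0 times at 26 °C, or 13.4 times with the 26 °C level from the fit of both temperatures.

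**Figure D2:**
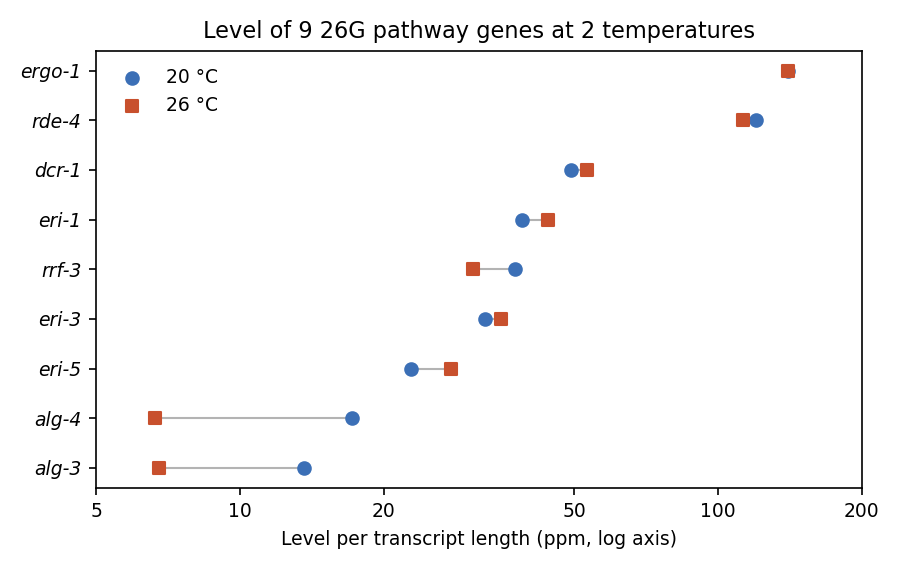
Level per transcript length in ppm (horizontal log axis) of the 9 genes (vertical axis, ordered by the fit of both temperatures), from the authors' means of the 20 °C fit (circles) and the 26 °C fit (squares). alg-4 stood at 17.1 and 6.65 and alg-3 at 13.6 and 6.78, while ergo-1 stood at 140.1 and 139.9.

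The Argonaute genes took different shares of the summed per-length level of the 9 genes. At 20 °C alg-3 and alg-4 together made up 6.52% of it, against 2.94% at 26 °C, or 4.47% with the 26 °C level from the fit of both temperatures. ergo-1 made up 29.7% and 30.6%. The per-length ratio of alg-3 to alg-4 was 0.796 at 20 °C and 1.02 at 26 °C, but 0.921 with the 26 °C level from the fit of both temperatures, so that no order of the paralogues at 26 °C can be given.

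Set against dcr-1 within the same fit, the genes that act beside it in the complex held closer ratios than the sperm Argonautes. The level of eri-3 was 0.660 of that of dcr-1 at 20 °C and 0.661 at 26 °C. For eri-1 the ratio was 0.788 and 0.829, and for eri-5 it was 0.461 and 0.519. rrf-3 stood at 0.761 and 0.578, and rde-4 at 2.43 and 2.11. With the 26 °C level from the fit of both temperatures the ratios were 0.612 for eri-3, 0.817 for eri-1 and 0.473 for eri-5. In that setting rrf-3 stood at 0.575 and rde-4 at 1.92. By contrast, alg-4 stood at 0.347 and 0.125 of dcr-1, and alg-3 at 0.276 and 0.127, while at 26 °C they stood at 0.188 and 0.173 with the level from the fit of both temperatures.

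**Figure D3:**
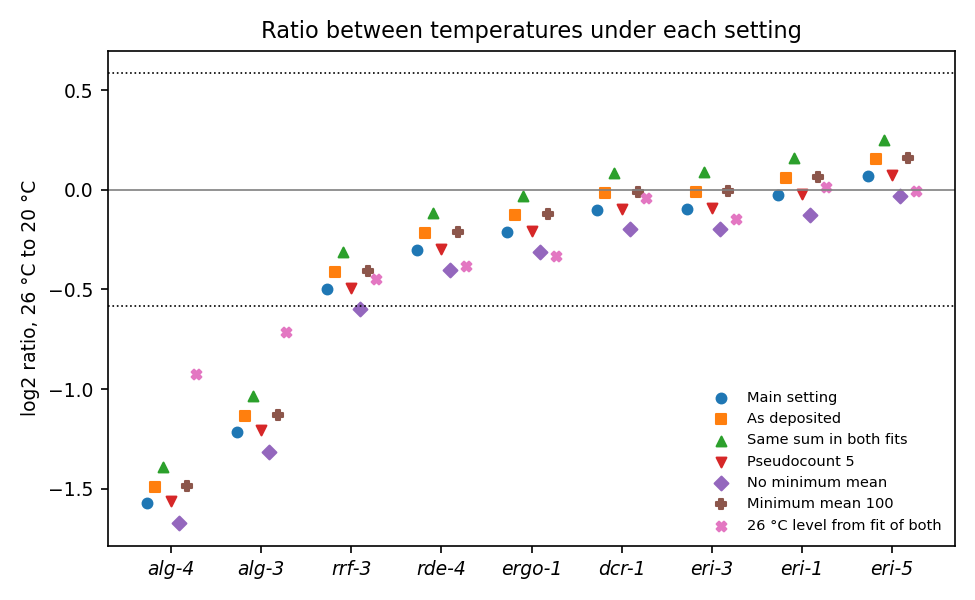
The log2 ratio of the 26 °C mean to the 20 °C mean (vertical axis) of each of the 9 genes (horizontal axis) under 7 settings (symbols), with dotted lines at 1.5-fold. alg-4 lay between -1.67 and -0.92 and alg-3 between -1.32 and -0.71, below the lower line under each setting, and rrf-3 reached -0.60 with no minimum mean.

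7 further factors known to work with this pathway were examined, and 0 of 7 passed 1.5-fold in either direction, where 13.7% of all genes were lower and 21.9% higher. This count depended on the setting. eri-9 was higher by more than 1.5-fold with the means as deposited, with a minimum mean of 100 and scaled to the same sum, at 0.62, 0.62 and 0.72, and eri-6 was lower, at -0.59, with the 26 °C level from the fit of both temperatures. With no minimum mean gtsf-1 was lower, at -0.59. gtsf-1, a partner of RRF-3, had 428.5 normalized counts at 20 °C and 323.1 at 26 °C, with a log2 ratio of -0.49, and the helicase gene drh-3 had a ratio of -0.47. pir-1, an RNA phosphatase, had a ratio of -0.13, and henn-1, which methylates the ends of ERGO-1-bound small RNAs, had -0.34. eri-6 and eri-7, whose transcripts are joined by trans-splicing to encode 1 helicase, had ratios of -0.48 and 0.03. eri-9, a further factor of the pathway, had the highest ratio of the list, 0.53, with means of 2181 and 3346. The list's median ratio was -0.34, and its summed mean was 8833 normalized counts at both temperatures, a log2 ratio of -0.08 on the same scale.

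Of 8 other small RNA genes, 1 was higher and 1 was lower by more than 1.5-fold, or 12.5% in each direction, beside 21.9% higher and 13.7% lower over all genes. sago-2, an Argonaute of secondary small RNAs, had 174.6 normalized counts at 20 °C and 605.4 at 26 °C, with a log2 ratio of 1.71. csr-1, a germline Argonaute required for fertility, had 21053 and 12232, with a ratio of -0.87. The other 6 lay within 1.5-fold: sago-1 at 0.57, the nuclear Argonaute gene nrde-3, which acts downstream of ERGO-1, at 0.13, the RNA-dependent RNA polymerase gene rrf-1 at -0.02, the Argonaute gene rde-1 at -0.15, drh-1 at -0.34 and the Mutator focus scaffold gene mut-16 at -0.39. sago-1 passed 1.5-fold with the means as deposited, with a minimum mean of 100 and scaled to the same sum, at 0.66, 0.66 and 0.76. Of these 6 genes, rrf-1 and rde-1 had another sign when the fits were scaled to the same sum, at 0.16 and 0.03.

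Marker genes of cell types differed between the temperatures as well, and their part in the values of alg-3 and alg-4 was not tested. Of 11 sperm and spermatogenesis markers, 10 had a mean of at least 10 and none was at 0. 3 of these 10 were lower at 26 °C by more than 1.5-fold and 0 were higher, beside 13.7% lower and 21.9% higher over all genes. With the means as deposited 2 were lower, beside 11.1% of all genes. A minimum mean of 100 gave 2 lower of 8, beside 8.24%. Scaled to the same sum 2 were lower and 1 was higher, beside 8.88% and 29.4% of all genes. Without these changes the median ratio was -0.42. With the 26 °C level from the fit of both temperatures that median was -0.18, above those of the oocyte markers at -0.56 and the germline markers at -0.56. The lowest were gsp-3, with 921.3 normalized counts at 20 °C and 319.6 at 26 °C, and gsp-4, with 1160 and 466.6. Both encode sperm phosphatases, with ratios of -1.61 and -1.40. The ratio of alg-4, -1.57, lay between them, and that of alg-3, -1.22, lay above both. fer-1, which acts in membrane fusion of sperm, was the third at -0.62. The remaining sperm markers past the minimum were spe-9 at -0.46, spe-41 at -0.42, spe-44 at -0.41, fog-1 at -0.15, spe-11 at -0.12, cpb-1 at -0.01 and fog-3 at 0.42. spe-38, with a mean of 5.9 in the fit of both temperatures, stood at 0.20. The summed level of the list was 225.4 ppm of the summed means of all genes at 20 °C and 187.9 at 26 °C. Of this gsp-3 made up 30.2 and 11.2 ppm and gsp-4 38.1 and 16.4 ppm. Together gsp-3 and gsp-4 fell by more ppm than the whole list, so in ppm the remaining markers did not fall in sum. Such ppm are scaled to the same sum in both fits, and cpb-1 alone made up 77.50 and 87.45 ppm. By the ratios set to the median of all genes, 9 of the 10 markers past the minimum lay below 0 and 1 above. Scaled to the same sum, 6 lay below 0 and 4 above.

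The other germline lists also lay below the median of all genes, and the somatic list above it. Of 8 oocyte markers 0 passed 1.5-fold, with a median ratio of -0.37, and of 6 germline markers 2, pgl-1 and gld-1, were lower, with a median of -0.52. Of 9 somatic markers 3, ges-1, dpy-7 and rol-6, were higher, with a median of 0.23. These counts stand beside the same 13.7% lower and 21.9% higher over all genes. The germline count was 0 when the fits were scaled to the same sum, beside 8.88% of all genes lower. With no minimum mean it was 4, beside 21.1% of all genes lower. The somatic count was 1 of 7 with a minimum mean of 100, beside 16.3% of all genes higher. Their summed levels at 20 °C and 26 °C were 7784 and 7040 ppm for oocyte, 3193 and 2515 for germline, and 31439 and 41387 for somatic markers, and no marker of these lists was at 0 in either fit. The gene vit-2 alone made up 29296 and 39001 ppm of the somatic sums, so these mostly give the level of 1 gene. The ratios of alg-3 and alg-4 were lower than those of the sperm markers other than gsp-3 and gsp-4, fer-1 at -0.62 being nearest. They were also lower than those of all oocyte and germline markers, the lowest of which was gld-1 at -0.72. With the 26 °C level from the fit of both temperatures the comparison with oocyte and germline markers held no longer. There gld-1 stood at -0.91, between alg-4 at -0.92 and alg-3 at -0.71. In that setting, where 2158 of 14175 genes were lower by more than 1.5-fold, so were 2 of the sperm markers with a mean of at least 10, without fer-1 at -0.17, and 4 of 8 oocyte and 3 of 6 germline markers, while gsp-3 and gsp-4 stood at -1.20 and -1.13.

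**Figure D4:**
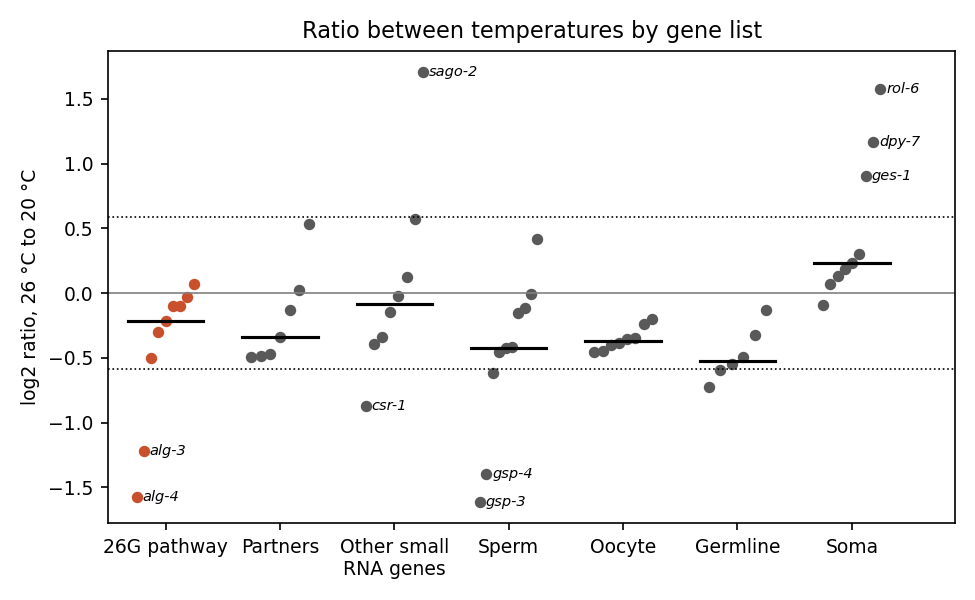
The log2 ratio of the 26 °C mean to the 20 °C mean (vertical axis) for the genes of 7 lists (horizontal axis) with a mean of at least 10, each point a gene, black bars the list medians and dotted lines 1.5-fold. alg-4 at -1.57 lies between gsp-3 at -1.61 and gsp-4 at -1.40, and alg-3 at -1.22 lies above both. alg-3 and alg-4 lie below the other sperm markers shown. They lie below all oocyte and germline markers in these fits, though not with the 26 °C level from the fit of both temperatures.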

How the data were processed

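Reads from directional libraries were processed by the authors with a core facility pipeline built on nf-core/rnaseq, on WBcel235 per the labels. The aligner and counter are not given in the sources used here. Each of the 10 tables covers 46926 genes, and the deposited mean normalized count of a gene is a signal, the average across whatever libraries entered 1 fit. The tables also hold the authors' own comparisons (log2 fold changes, their errors, test statistics and p-values), which were not used. No column held a value per library, so no depth, error, test or pairing could be computed.

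Ratios of means were computed with Python 3.11.15, numpy 2.4.6 and pandas 2.3.3, with a pseudocount of 0.5, a minimum mean of 10 and a fold of 1.5. The computation was checked on simulated means in which few genes changed. That check does not bear on the scaling between the fits used here. Lengths, positions and overlaps came from the Ensembl 115 annotation of WBcel235, in which all 46926 identifiers were found. Alternatives were other scalings, folds, pseudocounts, minimums and lengths, and a 26 °C level from the fit of both temperatures. Applying them to the other lists and to ratios between members was added after seeing the data. All members and all genes of the partner and neighbour lists were named. Marker lists were described by counts, summed levels and examples chosen after their values were seen, and all sperm markers were named. Members and lists were chosen with earlier results of these data known.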

Additional observations from a re-analysis of the deposited data

How the results depend on the processing

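Of the 9 genes, 2 were lower at 26 °C by more than 1.5-fold, alg-3 and alg-4, beside 13.7% of all genes. The count stayed at 2 with the means as deposited, beside 11.1% of all genes, and scaled to the same sum, beside 8.88%. It was also 2 with a pseudocount of 5, beside 12.8%, and with a minimum mean of 100, beside 8.24%. At 2-fold it was 2 as well, and the share of all genes past that fold is not given here. With the 26 °C level from the fit of both temperatures it was 2, beside 15.2% of all genes. At this setting, added after seeing the data, the log2 ratio was -0.71 for alg-3 and -0.92 for alg-4. With no minimum mean the count was 3, rrf-3 being added at -0.60, beside 21.1% of all genes. The median ratio of the 9 genes was -0.21, and -0.13 as deposited, -0.03 scaled to the same sum, -0.31 with no minimum mean, -0.12 with a minimum of 100, -0.21 with a pseudocount of 5 and -0.33 from the fit of both temperatures. The order of levels was the same by coding length and in the 20 °C fit, while 4 genes took another place in the 26 °C fit, where rrf-3 and eri-3, and alg-3 and alg-4, changed places, the latter pair not when the 26 °C level came from the fit of both temperatures. No paired analysis was possible because the tables hold no value per library, and leaving out a replicate was not possible for the same reason. Library depth is unknown here, so no limit of detection can be given.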
